A study of Mus musculus with 22 samples.

Results

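The genes described here are 10 targets of the transcription factor p53 that act in cell death: Fas, Tnfrsf10b, Eda2r, Bax, Bbc3, Pmaip1, Apaf1, Perp, Aen and Trp53inp1. They were taken by symbol from the 24819 genes of the deposited expression tables, and all 10 were listed in both tables. The rule names the genes by their known function and uses no measured value, but the members were chosen with earlier results of these data known. The RNA came from mouse embryonic stem cells of the line E14, cultured with LIF on gelatin and collected 3 days after transfection with small interfering RNA (siRNA). Of the 22 libraries, 8 formed set 1, with 2 libraries for every group among siNT, siRpl11, siRpl14 and their combination siRpl14+siRpl11. Set 2 had 4 libraries, 1 for siNT and 1 each with siRpl14, siDux and siRpl14+siDux. Set 3 had 10 libraries, the groups of set 2 in 2 libraries apiece and a lone library with siRpl11 and another with siRpl14+siRpl11. The siRNA against Rpl14, Rpl11 or Dux was mixed with siNT where it was given alone, and siNT alone was the control. The ribosomal proteins made from Rpl14 and Rpl11 belong to the large subunit, and Dux encodes a transcription factor of the early embryo. Sets 1 and 2 share a table and were told apart by the style of the sample titles. All groups were the same cell line, and the labels name no further allele or agent.

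When ribosome assembly is disturbed, free ribosomal proteins, RPL11 and RPL5 above all, bind Mdm2 and hold back the ubiquitin ligase that marks p53 for destruction. Stabilised p53 binds response elements in its target genes, among them genes of both apoptotic routes. The extrinsic route runs from death receptors at the cell surface through Fadd to initiator caspases. The intrinsic route runs from Bcl2 family proteins at the mitochondrion to cytochrome c release and the apoptosome, and mouse embryonic stem cells are known to be primed for it.

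The promoter windows of 2 members are shown because they held the 10-base repeat unit of the p53 response element, which p53 binds in pairs, and that of Fas because Fas was among the members that changed most. RefSeq promoter entries (GRCm38.p6, 250 bases before to 50 bases after the start site) were found for 6 of the 10 members, Fas, Bax, Bbc3, Apaf1, Aen and Eda2r. The unit was searched on both strands by its consensus and was found in 2 of these 6 genes, against 9.55% of all 27025 genes with an entry. The Bax match began 201 bases upstream of the start site, on chromosome 7, minus strand. The Aen match began 10 bases past the first transcribed base, on chromosome 7, plus strand. The 250 bases upstream of Fas, on chromosome 19, plus strand, held no match. Capitals mark the matched unit, and every sequence runs 5′ to 3′ on the strand of its gene. Exons of Ikbip, a neighbouring gene, lay within the 250 bases upstream of Apaf1 in the GENCODE annotation.
Bax, chr7:45466899-45467148: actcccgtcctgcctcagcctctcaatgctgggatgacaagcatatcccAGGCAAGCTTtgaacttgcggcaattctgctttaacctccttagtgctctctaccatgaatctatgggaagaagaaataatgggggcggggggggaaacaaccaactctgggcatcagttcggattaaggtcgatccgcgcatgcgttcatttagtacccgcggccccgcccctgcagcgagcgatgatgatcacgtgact
Aen, chr7:78895927-78895956: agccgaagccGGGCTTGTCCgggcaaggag
Fas, chr19:34290409-34290658: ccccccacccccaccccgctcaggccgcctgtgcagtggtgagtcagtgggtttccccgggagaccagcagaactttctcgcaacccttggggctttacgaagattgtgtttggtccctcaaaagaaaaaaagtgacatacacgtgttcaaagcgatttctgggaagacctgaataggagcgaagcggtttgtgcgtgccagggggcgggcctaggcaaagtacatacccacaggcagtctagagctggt

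The values are FPKM (fragments scaled by transcript length and library size), so levels can be compared between genes of a library, but the number of reads behind them is unknown. Between 30.1 and 32.1% of genes were listed at 0 in the libraries of sets 1 and 2, against 50.5 to 56.2% in those of set 3, where low values were coarser. The siRNA targets were checked first: with siRpl14 in set 1, Rpl14 stood at 60.2% of the siNT mean in replicate 1 and 27.1% in replicate 2, and with siRpl14+siRpl11 at 15.6% and 35.3%. Rpl14 stood at 34.6 to 35.1% in set 2 and 17.7 to 28.8% in set 3 in the libraries that received siRpl14. Rpl11 stood at 13.2 to 34.9% in set 1 and 19.2 to 23.7% in set 3 in the libraries that received siRpl11. Both genes have many processed copies in the genome, so these percentages are uncertain. Dux was listed at 0 in both siNT libraries and in both siDux libraries of set 3, so its knockdown could not be read there. In set 2 Dux stood at 0.306 FPKM with siNT and 0.0546 FPKM with siDux. Summed stem cell markers (8 genes) ranged from 1869 to 8689 FPKM, and 5 of 6 fibroblast markers (all but Col1a1) did not exceed 0.0535 FPKM in any library.

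Most of these genes rose with siRpl14, the membrane protein Perp and the death receptor Fas by the most on the log2(FPKM + 1) scale. In set 1, 8 of the 10 members rose with siRpl14 against siNT and none fell, where 31.5% of the 12129 genes tested changed and 18.1% rose. The median log2 fold change of the members was 0.92, beside 0.03 over all genes tested. Pmaip1 and Bbc3 did not pass the test. Because these are bulk samples, fewer cells of a type and less RNA per cell cannot be told apart. The labels do not state separate cultures for the replicates, so each p-value reflects the spread between these particular samples only, and that spread may be technical. Fas, Perp, Trp53inp1 and Apaf1 passed whichever of the 8 libraries of set 1 was left out. Tnfrsf10b, Eda2r, Bax and Aen did not pass without siNT replicate 1, without siNT replicate 2 or without siRpl14 replicate 2 (limma adjusted p from 0.0514 to 0.242), which left 4 members called each time. The share over all genes rested on single libraries as well: the 3822 genes called became 752 and 1419 when the first or second siNT library was dropped, and 791 when the second siRpl14 library was.

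**Figure D1:**
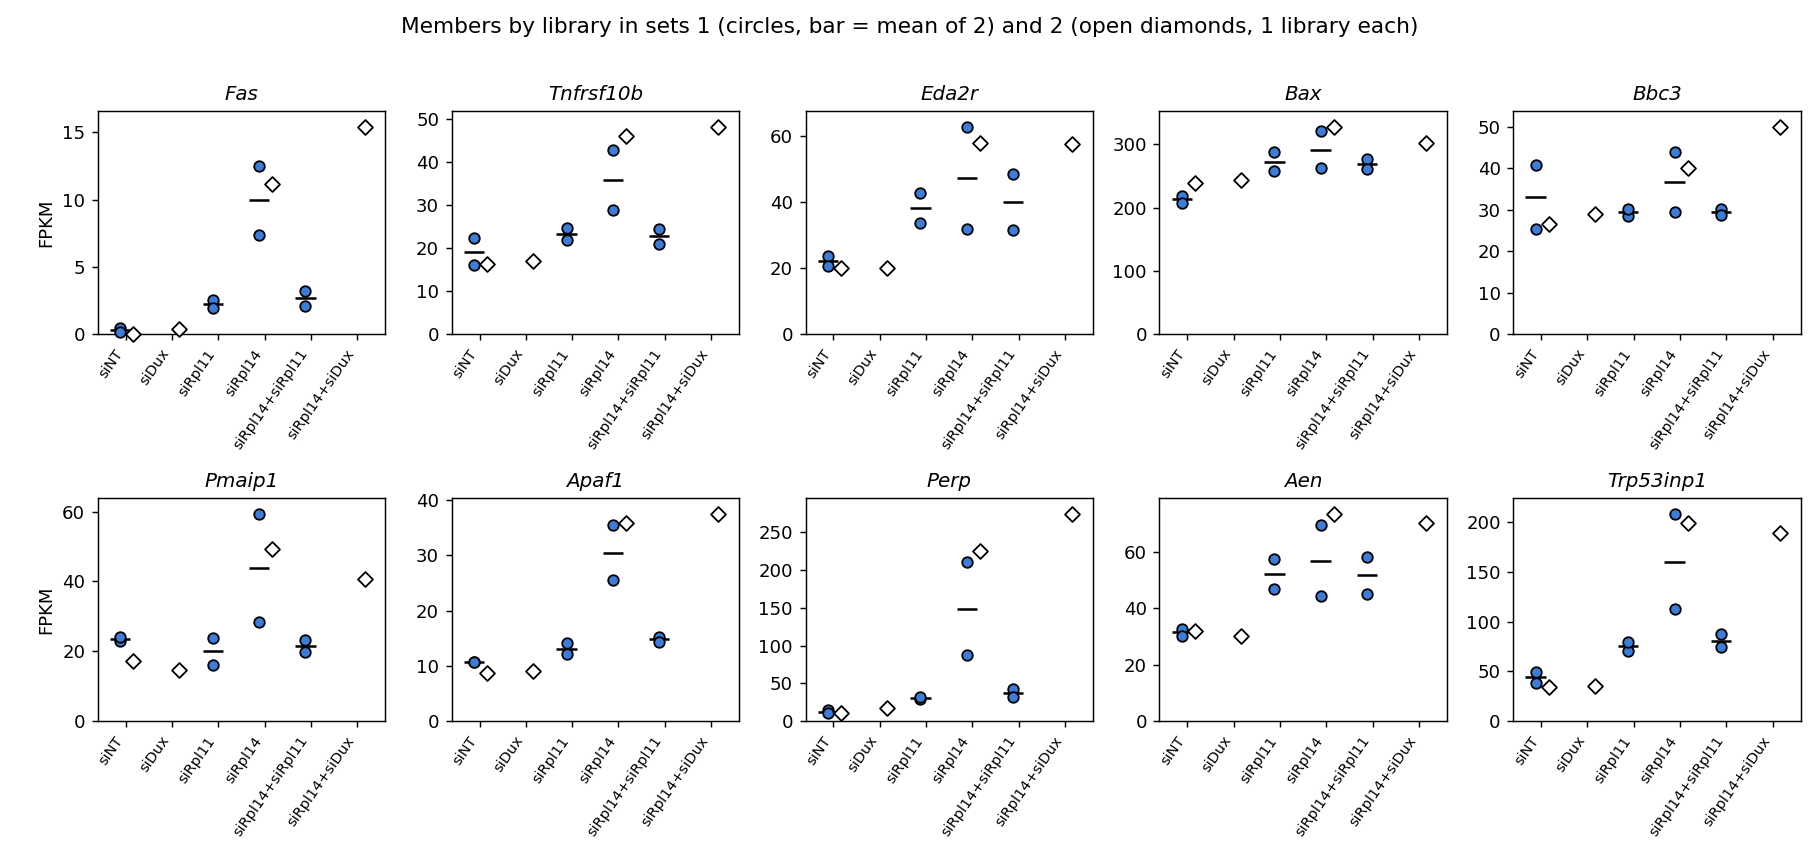
FPKM of each of the 10 genes (y axis, from 0) by group (x axis) in set 1 (filled circles, 1 per library, bar at the mean of 2) and set 2 (open diamonds, 1 library per group). The siRpl14 libraries are the high points for Perp, at 87.4 and 210.4 FPKM in set 1 against 10.1 and 14.4 FPKM with siNT, while the Bbc3 circles of siNT and siRpl14 overlap.

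The 3 death receptors differed widely in their starting level. Fas, the receptor for Fas ligand, was close to silent in the control, at 0.475 and 0.182 FPKM with siNT. It stood at 7.37 and 12.5 FPKM with siRpl14, at 2.51 and 1.94 FPKM with siRpl11 and at 3.20 and 2.12 FPKM with siRpl14+siRpl11. No group overlapped siNT, and both siRpl14 libraries were above every other library of set 1. Against the siNT mean the siRpl14 libraries were 22.5 and 38.2 times higher on the FPKM scale. On the log2(FPKM + 1) scale used for testing, where the change of a low gene appears smaller, the change was 3.01 ± 0.26 (SE; limma adjusted p = 0.000975).

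Tnfrsf10b, the mouse receptor for the ligand Trail, was already well expressed with siNT, at 22.3 and 15.98 FPKM. With siRpl14 it stood at 28.9 and 42.7 FPKM, with siRpl11 at 21.9 and 24.7 FPKM and with siRpl14+siRpl11 at 24.5 and 21.0 FPKM. The siRpl14 libraries were the highest of the 8, while the other knockdowns overlapped siNT. The rise with siRpl14 was 0.86 ± 0.21 in log2 (limma adjusted p = 0.0204).

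Eda2r, a receptor of the same superfamily for a form of ectodysplasin, stood at 23.5 and 20.7 FPKM with siNT and at 31.6 and 62.5 FPKM with siRpl14. With siRpl11 it stood at 33.7 and 42.8 FPKM and with siRpl14+siRpl11 at 48.4 and 31.5 FPKM. All 6 knockdown libraries were above both controls, and the 3 knockdowns overlapped each other. Its rise with siRpl14 was 0.98 ± 0.31 in log2 (limma adjusted p = 0.0454). It did not pass with median-ratio or quantile rescaling, plain limma, a replicate block or no filter (limma adjusted p from 0.0510 to 0.0745). The ligands of the 3 receptors were low: Fasl did not exceed 0.106 FPKM in sets 1 and 2, Tnfsf10 (Trail) did not exceed 0.0145 FPKM there, and Eda ranged from 0.436 to 1.27 FPKM.

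Of the 3 Bcl2 family members, only Bax passed the test. Bax, which forms pores in the outer mitochondrial membrane, was the most abundant of the 10 genes in every library of sets 1 and 2. It stood at 218.9 and 207.9 FPKM with siNT, 261.7 and 320.5 FPKM with siRpl14, 257.0 and 288.3 FPKM with siRpl11 and 276.1 and 260.4 FPKM with siRpl14+siRpl11. Again all 6 knockdown libraries were above the controls and the knockdowns overlapped. The rise with siRpl14 was small, 0.44 ± 0.12 in log2 (limma adjusted p = 0.0302).

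Pmaip1 (Noxa), a BH3-only protein that neutralises Mcl1, stood at 23.0 and 24.1 FPKM with siNT and at 28.5 and 59.3 FPKM with siRpl14. Both siRpl14 libraries were above the controls, but they lay far apart, and the fitted log2 difference of 0.78 ± 0.31 did not pass (limma adjusted p = 0.0885). It passed at 1.01 (limma adjusted p = 0.0113) when sets 1 and 2 were fitted together with set as a term, and at 1.29 (limma adjusted p = 0.00897) without siRpl14 replicate 1. Bbc3 (Puma), a BH3-only protein that binds all pro-survival Bcl2 proteins, stood at 40.8 and 25.5 FPKM with siNT and at 29.5 and 44.0 FPKM with siRpl14. The groups overlapped, and the fitted log2 difference was 0.16 with a 95% interval from -0.39 to 0.70 (limma adjusted p = 0.629). It turned negative without siNT replicate 2 (-0.18) and without siRpl14 replicate 2 (-0.13).

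Apaf1, the scaffold on which cytochrome c assembles the apoptosome, had the tightest control values of the list, 10.7 and 10.6 FPKM with siNT. It stood at 25.5 and 35.5 FPKM with siRpl14, at 14.2 and 12.1 FPKM with siRpl11 and at 15.3 and 14.4 FPKM with siRpl14+siRpl11. Both siRpl14 libraries stood clear of all the others, and the rise was 1.41 ± 0.16 in log2 (limma adjusted p = 0.00192).

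Perp, a tetraspan protein of the plasma membrane and of desmosomes that p53 induces during apoptosis, had the largest change of the 10 on the log2(FPKM + 1) scale, whereas on the FPKM scale its mean with siRpl14 was 12.1 times that with siNT and the mean of Fas 30.3 times. It stood at 14.4 and 10.1 FPKM with siNT, 87.4 and 210.4 FPKM with siRpl14, 29.4 and 32.2 FPKM with siRpl11 and 42.9 and 32.5 FPKM with siRpl14+siRpl11. The groups followed one another without overlap, siNT lowest, then siRpl11, then siRpl14+siRpl11 by a narrow margin, then siRpl14. The rise with siRpl14 was 3.38 ± 0.36 in log2 (limma adjusted p = 0.00166), and single siRpl14 libraries were 7.12 and 17.1 times the siNT mean on the FPKM scale.

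Trp53inp1, a nuclear stress protein that promotes phosphorylation of p53 and takes part in autophagy, stood at 49.8 and 38.3 FPKM with siNT and at 112.6 and 208.1 FPKM with siRpl14. With siRpl11 it stood at 70.8 and 80.0 FPKM and with siRpl14+siRpl11 at 87.2 and 74.8 FPKM. The siRpl14 libraries were again the highest of the 8 and the controls the lowest, with a rise of 1.79 ± 0.26 in log2 (limma adjusted p = 0.00414). Aen, a nuclease that enhances apoptosis, stood at 32.7 and 30.0 FPKM with siNT, 44.3 and 69.3 FPKM with siRpl14, 46.7 and 57.4 FPKM with siRpl11 and 58.1 and 45.0 FPKM with siRpl14+siRpl11. All knockdown libraries were above the controls and overlapped each other. The rise with siRpl14 was 0.80 ± 0.22 in log2 (limma adjusted p = 0.0278).

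Replicates of a group differed in the same direction for most members. With siNT, where no target was knocked down, 9 of 10 (all but Pmaip1) were higher in replicate 1 than in replicate 2, beside 41.1% of the 12129 genes tested. All 10 were higher in siRpl14 replicate 2 than in replicate 1, beside 54.8% of genes, and all 10 were higher in siRpl14+siRpl11 replicate 1 than in replicate 2, beside 47.3%. In both knockdown groups that was the library with less Rpl14 left, 27.1% against 60.2% and 15.6% against 35.3% of the siNT mean. With siRpl11, 8 of 10 were higher in replicate 2, beside 49.1% of genes, and there Rpl11 stood at 15.2% against 34.9%. The part of the remaining target RNA in the size of these changes was not tested.

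Fewer of these genes passed with Rpl11 knockdown alone. All 10 fitted changes were below those with siRpl14, but only 4 of the 10 differed in the direct test given below. Against siNT, 5 of 10 members rose with siRpl11 and none fell, where 44.3% of genes changed, 16% rising and 28.4% falling. The change was 1.28 ± 0.26 in log2 for Fas (limma adjusted p = 0.00739) and 1.28 ± 0.36 for Perp (limma adjusted p = 0.0239). It was 0.77 for Trp53inp1, 0.71 for Aen and 0.35 for Bax (limma adjusted p from 0.0319 to 0.0482). Eda2r, at 0.76, was above both controls in each library without passing (limma adjusted p = 0.0791). Bbc3 and Pmaip1 had fitted values below 0, with intervals from -0.67 to 0.41 and from -0.96 to 0.47. Over all genes tested the median was -0.11, beside 0.53 for the members. The cause of the shift over all genes was not tested. These calls depended on single libraries: without siNT replicate 2 none passed, without siNT replicate 1 or siRpl11 replicate 2 a single member did, and without siRpl11 replicate 1 there were 2. Fas failed only without siNT replicate 2 (limma adjusted p = 0.0517), and the lost values of the other 4 ranged from 0.0574 to 0.249. Over all genes, the 5377 called became 2084 and 2972 without siNT replicates 1 and 2 and 1778 without siRpl11 replicate 2.

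The direct comparison of the 2 ribosomal protein knockdowns separated 4 members. Fas, Apaf1, Perp and Trp53inp1 were higher with siRpl14 than with siRpl11, where 13.4% of genes differed, 12% higher and 1.45% lower with siRpl14. The differences in log2 were 1.73 ± 0.26 for Fas (limma adjusted p = 0.00628), 1.14 ± 0.16 for Apaf1 (limma adjusted p = 0.00522), 2.10 ± 0.36 for Perp (limma adjusted p = 0.00966) and 1.01 ± 0.26 for Trp53inp1 (limma adjusted p = 0.0415). Bax, Aen and Eda2r had differences of 0.09 (95% interval from -0.19 to 0.37), 0.10 (from -0.40 to 0.60) and 0.22 (from -0.49 to 0.94), none of which passed. The difference of Pmaip1, 1.03, did not pass either, and all 10 fitted differences were above 0. Perp did not pass without siRpl11 replicate 2 (limma adjusted p = 0.0579), and Trp53inp1 did not pass in any fit that left out a siNT or a siRpl11 library or the second siRpl14 replicate (limma adjusted p from 0.0695 to 0.126) or after median-ratio rescaling (0.0728). Fas and Apaf1 passed whichever library was left out. Trp53inp1 was also lost with quantile rescaling (limma adjusted p = 0.0615) and with no filter (limma adjusted p = 0.0691). The same held with a mean of at least 5 FPKM (limma adjusted p = 0.0522) and with a replicate block (limma adjusted p = 0.0636). The median over all genes was 0.12, beside 0.79 for the members, and the cause of the shift over all genes was not tested.

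**Figure D2:**
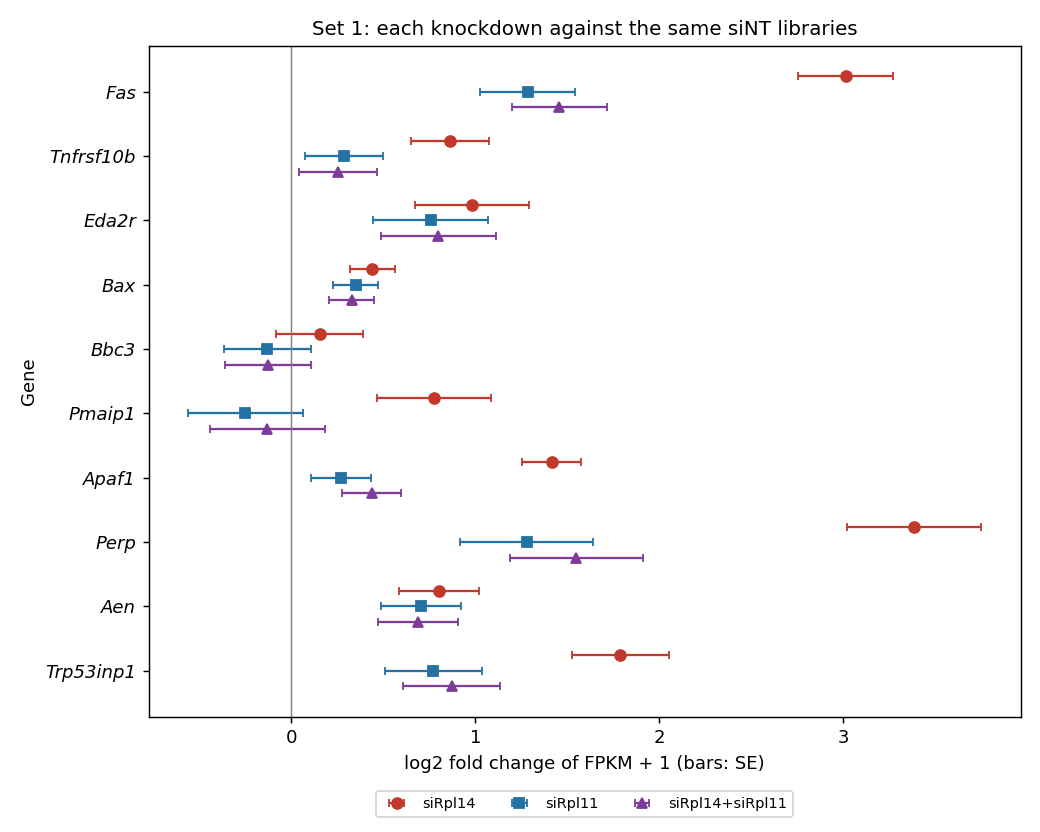
Change of each of the 10 genes against siNT in set 1, as log2 fold change of FPKM + 1 (x axis, bars are the SE of the fit, 2 libraries per group), for siRpl14 (red circles), siRpl11 (blue squares) and siRpl14+siRpl11 (purple triangles). The 3 comparisons share the siNT libraries. The siRpl14 point lies to the right of the other points for all 10 genes. For Bax, Aen and Eda2r the bars of the 3 knockdowns overlap.

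When Rpl11 was knocked down together with Rpl14, the members stood near their levels with siRpl11 alone. Against siRpl14, 3 members were lower with siRpl14+siRpl11 and none was higher, where 7.24% of genes differed and 6.61% were lower. Fas fell by 1.56 ± 0.26 in log2 (limma adjusted p = 0.0147), Apaf1 by 0.98 ± 0.16 (limma adjusted p = 0.0145) and Perp by 1.83 ± 0.36 (limma adjusted p = 0.0245). Trp53inp1, at -0.91, and Pmaip1, at -0.91, did not pass (limma adjusted p = 0.0805 and 0.129), and both passed without siRpl14 replicate 1. The fitted differences of Eda2r, Bax and Aen were -0.18 (95% interval from -0.90 to 0.54), -0.11 (from -0.39 to 0.17) and -0.11 (from -0.62 to 0.39). None of the members passed without siRpl14 replicate 2 or without siRpl14+siRpl11 replicate 2, and only Fas did without siRpl14+siRpl11 replicate 1 (limma adjusted p of the lost calls from 0.0543 to 0.0906). Without either siNT library Perp was lost as well (limma adjusted p = 0.0574 and 0.0575).

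Against siNT, 4 members were still higher with siRpl14+siRpl11, where 41.6% of genes changed, 16.6% rising and 25% falling. Fas rose by 1.46 ± 0.26 in log2 (limma adjusted p = 0.00607) and Perp by 1.55 ± 0.36 (limma adjusted p = 0.0134), and Trp53inp1 rose by 0.87 and Aen by 0.69 (limma adjusted p = 0.0310 and 0.0363). Fas passed whichever library was left out, and it was the only member to pass without siNT replicate 1, without siNT replicate 2 or without siRpl14+siRpl11 replicate 1 (limma adjusted p of the other 3 from 0.0541 to 0.198). Eda2r (0.80), Bax (0.33) and Apaf1 (0.44) did not pass (limma adjusted p from 0.0593 to 0.0704), and all 3 passed without siRpl14 replicate 1 and without siRpl14 replicate 2. Against siRpl11 alone no member passed, with fitted log2 differences from -0.03 to 0.27 and 0% of genes called by limma. Rpl14 did not pass there either, at means of 1456 FPKM with siRpl11 and 378 FPKM with siRpl14+siRpl11 (-2.06 in log2). The lack of calls therefore does not show equal levels. At an unadjusted p under 0.05 there were 387 of 12129 genes in that comparison.

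The interaction term measures how far the combined knockdown departs from the sum of the single changes in log2. It was negative for all 10 members, where the median term over all genes tested was -0.0058. It passed for 4 members, where 4.49% of genes passed, 2.65% with a negative term. The terms were -2.84 ± 0.36 for Fas (limma adjusted p = 0.0209), -1.25 ± 0.23 for Apaf1 (limma adjusted p = 0.0320), -3.11 ± 0.51 for Perp (limma adjusted p = 0.0269) and -1.69 ± 0.37 for Trp53inp1 (limma adjusted p = 0.0470). Of the others, Tnfrsf10b had a term of -0.90 and Aen of -0.82, without passing (limma adjusted p = 0.104 and 0.129). No member passed without siNT replicate 1, siNT replicate 2, siRpl11 replicate 1 or siRpl14+siRpl11 replicate 2, a single member passed without siRpl11 replicate 2, 2 passed without siRpl14 replicate 2 or siRpl14+siRpl11 replicate 1, and 8 passed without siRpl14 replicate 1. The lost terms had limma adjusted p from 0.0518 to 0.137. With the replicate number as a block no member passed. Over all genes, the 544 terms that passed became between 2 and 273 when any library but siRpl14 replicate 1 was left out, and 1199 without that library.

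The transcript of p53 itself was measured as well. Trp53 stood at 142.9 and 176.7 FPKM with siNT, 256.9 and 396.1 FPKM with siRpl14, 431.5 and 631.1 FPKM with siRpl11 and 589.6 and 427.9 FPKM with siRpl14+siRpl11. Its rise with siRpl14 was 1.00 ± 0.26 in log2 (limma adjusted p = 0.0254), and it did not pass without either siNT library or without siRpl14 replicate 2 (limma adjusted p from 0.0713 to 0.156). Against siNT, Trp53 also rose with siRpl11, by 1.71, and with siRpl14+siRpl11, by 1.65, and both passed. Trp53 differed by -0.71 between siRpl14 and siRpl11 and by 0.65 between siRpl14+siRpl11 and siRpl14, and neither passed (limma adjusted p = 0.117 and 0.188). Mdm2, the p53 target that restrains p53, rose by 2.48 ± 0.28 (limma adjusted p = 0.00182), whereas Cdkn1a, the p21 gene of cell cycle arrest, had a fitted difference of 0.27 ± 0.28 that did not pass (limma adjusted p = 0.474). In set 2 Trp53 stood at 197.0 FPKM with siNT and 387.1 FPKM with siRpl14. In set 3 it ranged from 27.9 to 31.4 FPKM with siNT and from 38.8 to 41.3 FPKM with siRpl14. The fitted difference there, 0.42, did not pass. The lone libraries of set 3 stood at 81.1 FPKM with siRpl11 and 69.4 FPKM with siRpl14+siRpl11. In set 2 Cdkn1a stood at 45.3 FPKM with siNT and 124.5 FPKM with siRpl14. In set 3 it stood at 17.1 and 24.6 FPKM with siNT and at 55.9 and 47.8 FPKM with siRpl14, without overlap, and the fitted difference of 1.29 ± 0.44 did not pass (limma adjusted p = 0.293).

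Set 2 had a single library per group, so it gives values with no test. With siRpl14, 8 of 10 members were at least 2-fold higher than with siNT on the log2(FPKM + 1) scale, beside 6.65% of 11948 genes. Perp stood at 224.9 FPKM against 10.7 FPKM, Trp53inp1 at 198.8 against 34.3 FPKM, Apaf1 at 35.95 against 8.79 FPKM and Fas at 11.2 against 0.0319 FPKM. Bax (326.8 against 238.4 FPKM) and Bbc3 (40.2 against 26.7 FPKM) were the members under 2-fold. Pmaip1, which did not pass in set 1, was among those past it, at 49.2 FPKM against 17.2 FPKM. With siDux alone no member was 2-fold higher on that scale, beside 0.117% of genes. Perp then stood at 16.8 FPKM and Fas at 0.417 FPKM. With siRpl14+siDux 8 members were at least 2-fold higher than siNT, beside 7.97% of genes. Perp then stood at 274.1 FPKM, Fas at 15.4 FPKM and Trp53inp1 at 189.4 FPKM. Of the 10 members, 5 were above and 5 below their siRpl14 level.

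**Figure D3:**
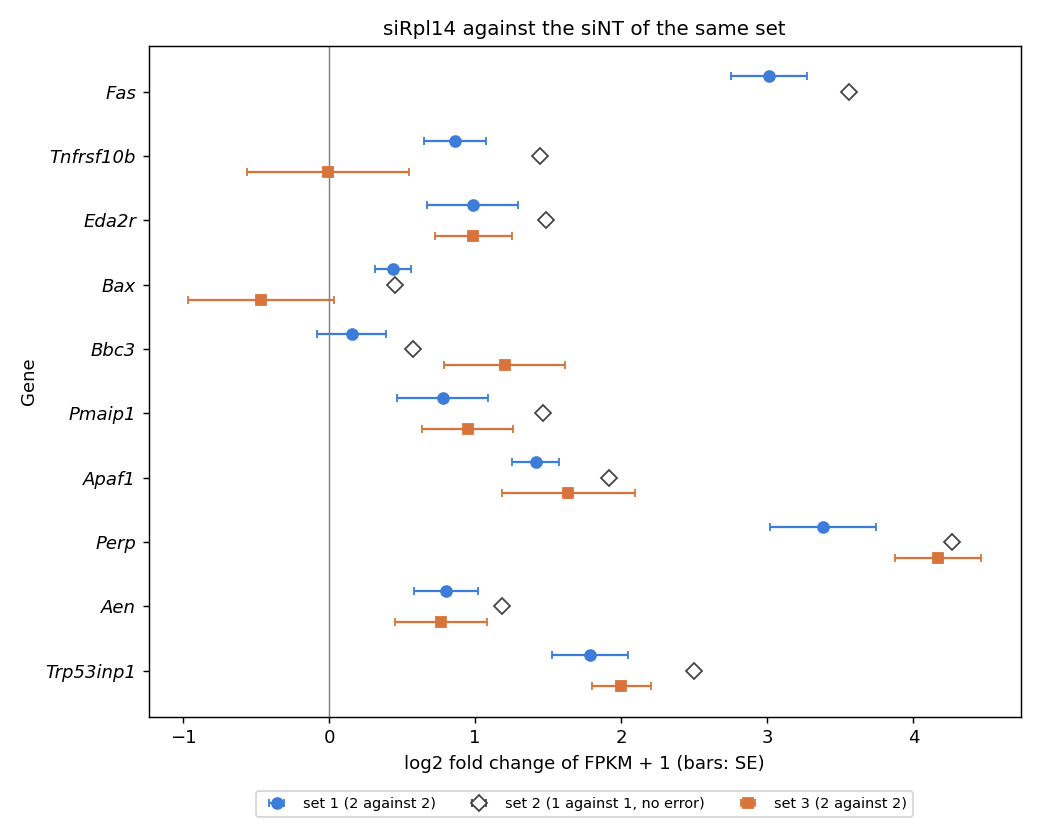
Change with siRpl14 against the siNT of the same set for each gene, as log2 fold change of FPKM + 1 (x axis), in set 1 (blue circles), set 2 (open diamonds, 1 library against 1, no error) and set 3 (orange squares). Bars are the SE of the fit. Fas has no set 3 point because both siNT libraries listed it at 0. Perp lies farthest right in all 3 sets, from 3.38 to 4.27, and Bax lies above 0 in sets 1 and 2 and at -0.47 in set 3.

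Set 3, from a table that may have been normalised separately, repeated siRpl14 with 2 libraries per group. There 2 of 10 members rose with siRpl14 against siNT, where 0.66% of the 13189 genes tested changed and 0.531% rose. Perp stood at 4.98 and 3.10 FPKM with siNT and at 95.01 and 81.3 FPKM with siRpl14, a rise of 4.17 ± 0.30 in log2 (limma adjusted p = 0.00212). Trp53inp1 stood at 35.7 and 41.3 FPKM with siNT and at 169.4 and 144.7 FPKM with siRpl14, a rise of 2.00 ± 0.20 (limma adjusted p = 0.00814). Neither gene overlapped its controls. Perp passed whichever library was left out, but Trp53inp1 did not pass once any of the siNT or siRpl14 libraries was left out (limma adjusted p from 0.0525 to 0.0854).

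Most other members of set 3 lay above their controls without passing. Apaf1 stood at 3.78 and 3.12 FPKM with siNT and 15.7 and 10.4 FPKM with siRpl14 (1.64 in log2, limma adjusted p = 0.213). Bbc3, which overlapped in set 1, stood at 5.31 and 3.88 FPKM with siNT and 13.6 and 10.1 FPKM with siRpl14 (1.20, limma adjusted p = 0.296). Eda2r (0.99), Pmaip1 (0.95) and Aen (0.77) had fitted differences close to those of set 1 (limma adjusted p from 0.197 to 0.376). In all, both siRpl14 libraries were above both siNT libraries for 8 of 10 members, beside 18.5% of the genes tested. The exceptions were Tnfrsf10b, at 10.5 and 8.85 FPKM with siNT and 9.06 and 10.2 FPKM with siRpl14, and Bax, at 45.0 and 39.5 FPKM against 22.4 and 40.9 FPKM. For Bax the fitted difference was -0.47 with a 95% interval from -1.62 to 0.69 (limma adjusted p = 0.760). In simulated data with the spread of set 3, 20% of genes changed by 1 in log2 and 67% of those changed by 2 were recovered, so changes of the size of Aen or Eda2r were mostly not detectable there.

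Fas was low in set 3, where low values were coarse. It was listed at 0 in both siNT libraries and in the siRpl11 library, at 3.20 and 2.54 FPKM with siDux, 8.82 and 4.01 FPKM with siRpl14, 1.99 FPKM with siRpl14+siRpl11 and 23.5 and 8.47 FPKM with siRpl14+siDux. Scaled by estimated relative depth (0.623 to 1.17 of siDux replicate 1), the values above 0 lay between 1 and 9.70 times the lowest of them. No fold against siNT is given, since both siNT libraries listed Fas at 0.

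**Figure D4:**
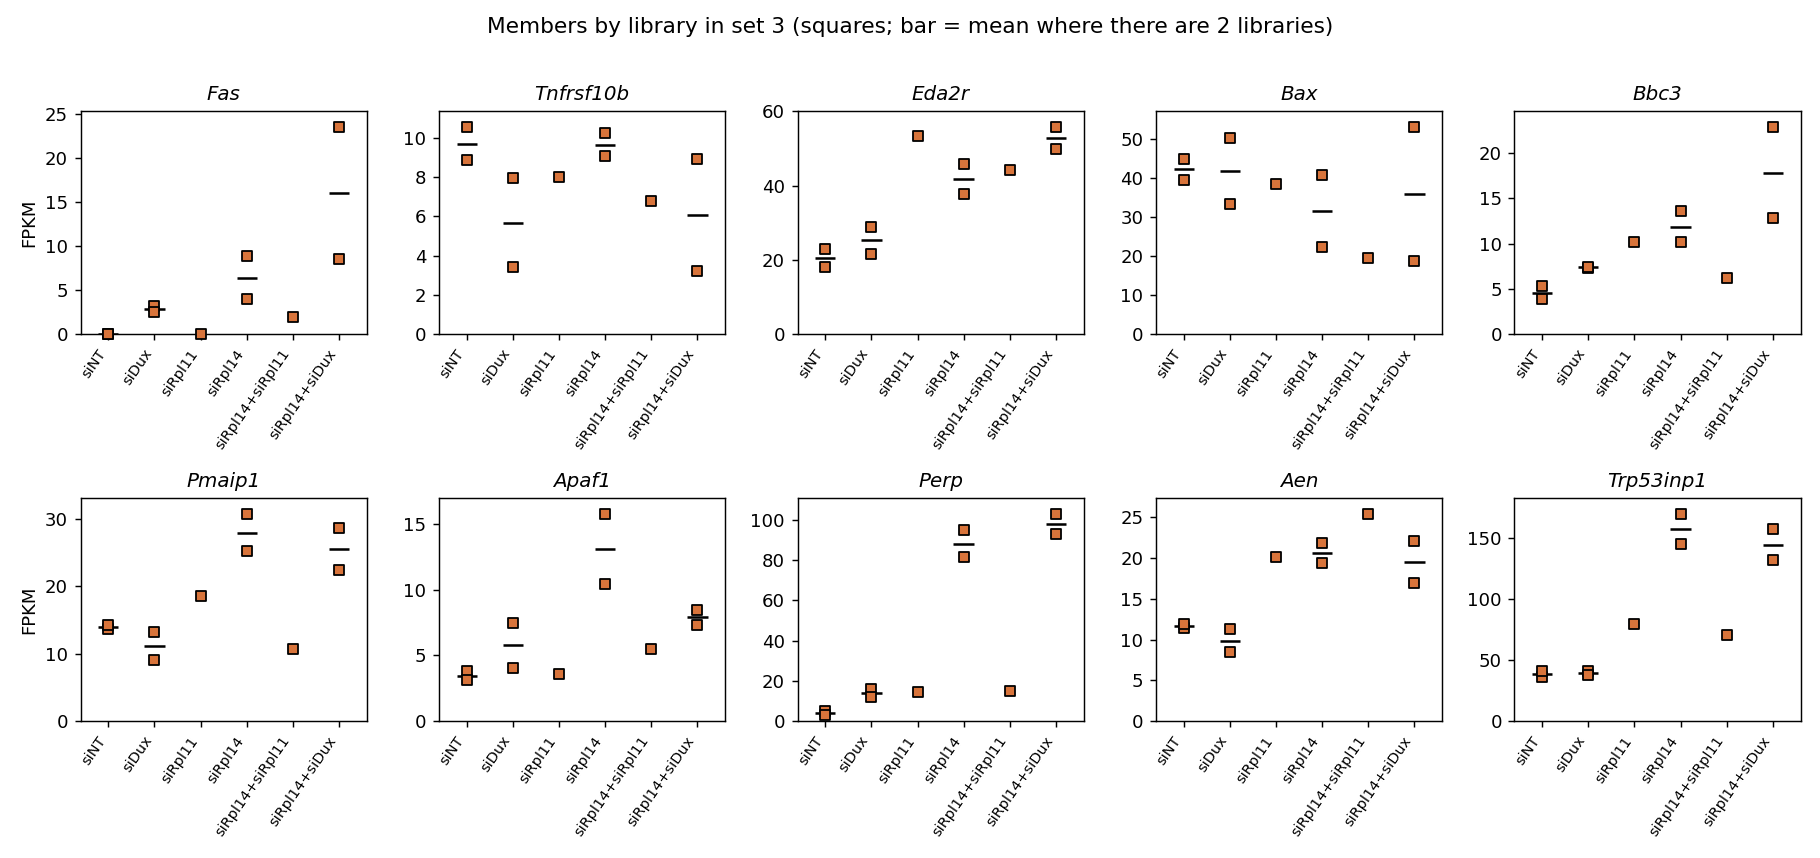
FPKM of each of the 10 genes (y axis, from 0) by group (x axis) in set 3, 1 square per library, with a bar at the mean where there were 2 libraries. For Perp and Trp53inp1 the siRpl14 and siRpl14+siDux squares stand apart from the rest. For Bax and Tnfrsf10b the siRpl14 squares overlap those of siNT, while the lone siRpl14+siRpl11 square lies under both siNT squares.

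No member passed the test between siRpl14+siDux and siRpl14 in set 3, where 0.0152% of genes did and where few changes of 1 in log2 were detectable. Perp stood at 102.9 and 92.8 FPKM with siRpl14+siDux, a log2 difference of 0.15 from siRpl14 with a 95% interval from -0.53 to 0.84 (limma adjusted p = 0.969). Trp53inp1 stood at 157.0 and 131.8 FPKM, a difference of -0.12 with an interval from -0.59 to 0.35 (limma adjusted p = 0.947). The intervals of other members were wide, as for Fas, from -0.39 to 2.63. Apaf1 stood at 8.46 and 7.32 FPKM, below both siRpl14 libraries, a difference of -0.64 with an interval from -1.69 to 0.42 (limma adjusted p = 0.881). In all, 2 members lay wholly below their siRpl14 libraries and 1 wholly above, beside 15.4% and 16.6% of genes. Against siNT, 3 members rose with siRpl14+siDux, where 1.02% of genes changed and 0.713% rose: Perp by 4.32 ± 0.30 in log2 (limma adjusted p = 0.00135), Trp53inp1 by 1.88 ± 0.20 (limma adjusted p = 0.00873) and Fas (limma adjusted p = 0.0412). Fas did not pass whichever library was left out (limma adjusted p from 0.0730 to 0.174), nor did Trp53inp1 without either siNT library or siRpl14+siDux replicate 2 (limma adjusted p from 0.0501 to 0.0542).

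With siDux alone no member passed in set 3, where 0.00758% of genes did. Both siDux libraries were above both siNT libraries for Perp, Fas, Bbc3 and Apaf1, 4 of 10 members, beside 14.4% of the genes tested. Perp stood at 15.9 and 11.8 FPKM, with a fitted difference of 1.57 ± 0.30 (limma adjusted p = 0.347). In the unreplicated libraries of set 3, siRpl11 and siRpl14+siRpl11 each put 4 members at least 2-fold above the siNT mean. This count is on the log2(FPKM + 1) scale, beside 9.77% and 11% of 13497 genes. With siRpl14+siRpl11 it includes Fas, at 1.99 FPKM against 0 with siNT. Above both siNT libraries were 6 members with siRpl11 and 7 with siRpl14+siRpl11, beside 25.1% and 25.3% of the genes tested. Under both were Bax (38.6 and 19.4 FPKM) and Tnfrsf10b (8.01 and 6.80 FPKM). Pmaip1 was under both only with siRpl14+siRpl11 (10.7 FPKM). Perp stood at 14.2 FPKM with siRpl11 and 14.7 FPKM with siRpl14+siRpl11, and Trp53inp1 at 79.2 and 70.2 FPKM, all of them under both siRpl14 libraries. Eda2r stood at 53.3 and 44.3 FPKM and Aen at 20.1 and 25.4 FPKM, within or above the siRpl14 range. Of the 10 members, 8 were lower with siRpl14+siRpl11 than in the lower siRpl14 library, beside 34% of the 13189 genes tested.

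Other p53 targets, 24 genes of arrest, feedback, repair and metabolism, were set beside the members. With siRpl14 in set 1, 14 rose, 3 fell and 7 did not pass, with a median of 0.75. Among all genes tested, 18.1% rose and 13.4% fell. Plk2, a stress-induced polo-like kinase, rose by 2.82, Mdm2 by 2.48 and Phlda3, which restrains Akt, by 1.69 (limma adjusted p from 0.00182 to 0.0111). The damage recognition genes Ddb2 and Xpc fell by 0.80 and 0.63 and Sesn1, a sestrin, by 0.45 (limma adjusted p from 0.00984 to 0.0470). By role, 5 of 8 arrest genes, 3 of 4 feedback genes and 6 of 12 genes of repair and metabolism rose. With siRpl11, 6 of the 24 rose and 5 fell, beside 16% and 28.4% of all genes. With siRpl14+siRpl11 against siRpl14, 7 were lower and none was higher, beside 6.61% and 0.627% of all genes. In set 3, 3 of 23 rose with siRpl14 and none fell, beside 0.531% and 0.129% of all genes. Without siNT replicate 1 or siRpl14 replicate 2, Phlda3, Ddb2, Xpc and Sesn1 did not pass (limma adjusted p from 0.0542 to 0.111), and Phlda3, Ddb2 and Sesn1 did not without siNT replicate 2 (0.0676 to 0.186). Sesn1 did not pass whichever library was left out.

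The wider apoptosis machinery outside the members showed no common direction. Of 34 genes listed, 29 were tested in set 1, and with siRpl14 5 rose, 3 fell and 21 did not pass, with a median of 0.01. Among all genes tested, 18.1% rose and 13.4% fell, so neither count stood out. The risers included Bcl2l1 (Bcl-xL), which opposes Bax, at 1.19, Fadd, the death receptor adaptor, at 0.94 and Pidd1, the caspase-2 platform, at 0.87 (limma adjusted p from 0.00182 to 0.0147). In FPKM, Bcl2l1 stood at a mean of 18.3 ± 0.392 (SD, n = 2) with siNT and 43.2 ± 7.93 with siRpl14. The BH3-only genes Hrk and Bmf fell by 1.16 and 1.00 and the pro-survival Bcl2l2 by 0.75 (limma adjusted p from 0.00417 to 0.0153). Of 5 genes of death receptor signalling 3 rose, of 8 pro-death Bcl2 family genes 2 fell, and of 6 caspase inhibitors none passed. With siRpl11, 3 of the 29 rose and 9 fell, beside 16% and 28.4% of all genes, so neither count stood out, and 5 of those that fell were in the pro-death Bcl2 family. In set 3 none of 32 passed with siRpl14, beside 0.66% of all genes. Without siNT replicate 1 or siRpl14 replicate 2, Fadd, Pidd1, Bmf and Bcl2l2 did not pass (limma adjusted p from 0.0505 to 0.112), nor did Bcl2l2 without siNT replicate 2 (0.0629).

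Markers of other cell types were followed in the same libraries. Summed trophectoderm markers (7 genes, of which Elf5 was at 0 in 5 of 8 libraries of set 1) ranged from 15.5 to 17.6 FPKM with siNT, 19.8 to 35.4 FPKM with siRpl14, 8.21 to 9.67 FPKM with siRpl11 and 9.35 to 10.4 FPKM with siRpl14+siRpl11. In set 2 the sum was 11.3 FPKM with siNT, 47.4 FPKM with siRpl14 and 87.8 FPKM with siRpl14+siDux. In set 3 it ranged from 2.77 to 6.46 FPKM with siNT, from 5.60 to 7.92 FPKM with siRpl14, which overlap, and from 16.6 to 22.5 FPKM with siRpl14+siDux. Of the 5 tested in set 1, 2 rose with siRpl14, beside 18.1% of all genes. With siRpl14+siRpl11, 3 of the 5 were lower than with siRpl14, beside 6.61% of all genes. In set 3, 0 of the 4 tested passed with siRpl14. Summed stem cell markers ranged from 7774 to 8689 FPKM with siNT and from 5205 to 5748 FPKM with siRpl14 in set 1, where 3 of 8 fell and 1 rose. They ranged from 6537 to 6779 FPKM with siRpl11, where 4 of 8 fell and 1 rose, and from 5668 to 5828 FPKM with siRpl14+siRpl11, where 6 of 8 fell and 1 rose. Among all genes tested, 13.4% fell with siRpl14, 28.4% with siRpl11 and 25% with siRpl14+siRpl11, while 18.1%, 16% and 16.6% rose. Perp is also expressed in epithelia. The part of these cell states in the members' changes was not tested.

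Across the 8 libraries of set 1, the members' standardised log2 levels were averaged and every tested gene was ranked by its Pearson correlation with that mean. The 5 genes outside the list most like it were Ehd4 (r = 0.995), C130083M11Rik (r = 0.993), Nmt1 (r = 0.992), Susd6 (r = 0.991) and Pid1 (r = 0.991). Among the members themselves, Trp53inp1 was most like the mean of the other 9 (r = 0.986), followed by Tnfrsf10b (r = 0.971) and Perp (r = 0.965). Pmaip1 (r = 0.739) and Bbc3 (r = 0.519) were least like it. These values describe 8 libraries in 4 groups that share their normalisation.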

How the data were processed

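RNA was extracted with Trizol and libraries were made with a stranded mRNA kit, per the labels' protocols. The authors deposited FPKM in 2 tables, 1 for sets 1 and 2 and 1 for set 3. STAR, Cuffnorm and the mouse build mm9 are named in the submitters' processing notes. For versions, annotation, strand setting and normalisation, the entry is not given in the sources used here, so reads of genes that overlap on opposite strands cannot be told apart. Depth is unknown and limits low values, most in set 3.

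The members and lists were chosen with earlier results of these data known. Each set was fitted alone with limma 3.58.1 (trend and robust, statmod 1.5.0) in R 4.3.3 on log2(FPKM + 1), 8 libraries per fit and 2 per group. Genes were kept if 2 or more libraries reached 1 FPKM, and all 10 members passed in both sets. The p-values were adjusted by Benjamini-Hochberg over all genes tested, with a threshold of 0.05. Set 2 and the unreplicated groups of set 3 were not tested. The comparisons with siNT share control libraries, so no overlap between them is given. Besides the members, the text names the siRNA targets, Trp53, Mdm2, Cdkn1a, 3 ligands, the 3 genes of each other list with the largest and the 3 with the smallest change past the threshold in siRpl14 against siNT of set 1, and the 5 genes most like the members. The fit was tested on simulated data: for siRpl14 against siNT in set 1, all 100 genes changed by 1 in log2 and all 100 changed by 2 were recovered, with 11 false calls among 11738 genes. The simulated noise of both sets was independent between genes and libraries and followed a smoothed spread. It lacked the replicate differences that genes share in the real libraries, so these rates need not hold there. Alternatives were a pseudocount of 0.1, no filter, a mean of at least 5 FPKM, median-ratio and quantile rescaling, plain limma, a replicate block, joint fits of sets or libraries, and leaving out each library. Gene coordinates in mm9 were not used here.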

Additional observations from a re-analysis of the deposited data

Results flagged for a closer look

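The interaction of siRpl14 and siRpl11 in set 1 passed the test for 4 of the 10 members, a test of whether the effect of siRpl14 differed with and without siRpl11. These calls rested on single libraries: no member passed without siNT replicate 1, siNT replicate 2, siRpl11 replicate 1 or siRpl14+siRpl11 replicate 2, nor with the replicate number as a block, and leaving out 1 library moved the count from 4 to between 0 and 8. The term was -3.11 for Perp, -2.84 for Fas, -1.69 for Trp53inp1 and -1.25 for Apaf1 on the log2(FPKM + 1) scale. In FPKM, the change from siNT to siRpl14 in Perp was from a mean of 12.3 to 148.9, while siRpl11 and siRpl14+siRpl11 had means of 30.8 and 37.7.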

How the results depend on the processing

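With the replicate number as a block, the interaction of siRpl14 and siRpl11 passed for 0 members in place of 4 (limma adjusted p from 0.0521 to 0.0741 for those 4) and siRpl11 against siNT for 3 in place of 5 (Bax and Trp53inp1 lost). Eda2r with siRpl14 and Trp53inp1 in siRpl14 against siRpl11 were lost too, and no other member call changed. The numbers were not taken as pairs. In set 1, differences between replicates 1 and 2 correlated over genes at 0.50 between siRpl11 and siRpl14. With those of siRpl14+siRpl11 these 2 groups correlated at -0.50 and -0.49. For siNT the values were 0.25 with siRpl11, 0.18 with siRpl14 and -0.24 with siRpl14+siRpl11. The groups of set 1 thus shared a replicate difference that ran the other way in siRpl14+siRpl11. A block on the replicate number does not model such a difference. In set 3 the correlations were 0.01 to 0.04. The members that rose with siRpl11 were 2 with no filter, 3 with quantile rescaling and 3 with plain limma. With no filter, 2 rose with siRpl14+siRpl11 in place of 4 and 2 had an interaction. With a mean of at least 5 FPKM, which removes Fas, 2 had an interaction and 2 differed between siRpl14 and siRpl11. Plain limma left 1 member in place of 2 with siRpl14 in set 3. Leaving out each library in turn, members called ranged from 4 to 9 for siRpl14 (8 with all libraries), 0 to 6 for siRpl11 (5), 1 to 7 for siRpl14+siRpl11 (4), 0 to 5 against siRpl14 (3), 2 to 6 for siRpl14 against siRpl11 (4) and 0 to 8 for the interaction (4), and from 1 to 2 in set 3 for siRpl14 (2) and for siRpl14+siDux (3). Signs turned only where nothing was called: Bbc3 with siRpl14 ranged from -0.18 to 0.49, and with siRpl14+siRpl11 against siRpl14 Aen ranged from -0.43 to 0.20, Bax from -0.26 to 0.035 and Eda2r from -0.66 to 0.30. In set 3, Trp53inp1 with siRpl14+siDux against siRpl14 ranged from -0.25 to 0.0036. Of all genes called, the share that was higher moved after median-ratio and quantile rescaling from 36.0% to 48.2 and 51.5% for siRpl11 against siNT, from 39.8% to 47.2 and 51.9% for siRpl14+siRpl11 against siNT, from 8.66% to 19.0 and 22.9% for siRpl14+siRpl11 against siRpl14 and from 89.2% to 65.9 and 64.6% for siRpl14 against siRpl11. Counts over all genes moved by more than 1.5 times in these fits of set 1: siRpl14 against siNT from 3822 to 2385 with a mean of at least 5 FPKM and to 5904 with set 2 added, siRpl14+siRpl11 against siRpl14 from 878 to 345 with that filter, 463 with quantile rescaling and 539 with the block, siRpl14 against siRpl11 from 1628 to 765 and 993 with that filter and quantile rescaling, and the interaction from 544 to 145 with that filter, 313 with none and 27 with the block. In set 3, siRpl14 against siNT went from 87 to 54 with no filter and 36 with plain limma, and siRpl14+siDux against siRpl14 from 2 to 16 with a pseudocount of 0.1, 7 with the stricter filter, 19 with plain limma and 1 with the block. The siDux comparison gave 1 gene, or 3 with plain limma, 2 with all 10 libraries and 0 with the block. Leaving out each library in turn, counts over all genes ranged from 752 to 3851 for siRpl14 against siNT, 1778 to 5592 for siRpl11, 1307 to 5255 for siRpl14+siRpl11, 79 to 670 against siRpl14, 379 to 1380 for siRpl14 against siRpl11 and 2 to 1199 for the interaction, and in set 3 from 8 to 45 for siRpl14 and 26 to 90 for siRpl14+siDux against siNT. Where not said, the cause was not tested.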
